A study of Mus musculus with 19 samples.

Results

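The fast excitatory synapses of the hippocampus signal through AMPA and NMDA receptors, both of which are assembled from several subunits that open a cation channel when glutamate binds. The genes described here are Gria1, Gria2, Gria3 and Gria4, which encode the AMPA receptor subunits, and Grin1, Grin2a, Grin2b, Grin2c, Grin2d and Grin3a, which encode NMDA receptor subunits. They were chosen by name, through the Ensembl identifiers of the count files, and make up 10 of 48709 counted genes. All 10 passed the filter on low counts, as did 19286 genes in total. The 19 libraries, each labelled as a separate sample, came from CA1 tissue dissected from the hippocampus of mice, which per the study's methods were male wild-type C57B/6J animals. Young mice of 3 months (n = 6) and old control mice of 16.5 months (n = 6) carried control oligonucleotides, while old anti-miR-mix mice of 16.5 months (n = 7) carried inhibitors against miR-148a-3p, against miR-181a-5p and also against miR-146a-5p. In all groups the oligonucleotides were given as lipid nanoparticles into the dorsal hippocampus, so no group was free of injection.

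AMPA receptors carry most of the fast current at resting synapses, and the insertion of more of them, often with the product of Gria1, is a known step of long-term potentiation. The product of Gria2 is edited at the RNA level, which makes the channels that contain it nearly impermeable to calcium. NMDA receptors need the product of Grin1 together with others. Receptors built with the product of Grin2b dominate early in life and those with the product of Grin2a gain ground as synapses mature, which is why the ratio of Grin2a to Grin2b is used as an index of maturity, whereas the product of Grin3a lowers calcium entry.

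Since the treatment blocked 3 microRNAs, the subunit messages were first searched for their sites. A microRNA recognises a message mainly through its seed, bases 2 to 8, which pairs with a matching stretch in the 3′ untranslated region (3′UTR). The mature sequences, taken from RefSeq (GRCm38.p6), are shown 5′ to 3′ with the seed in capitals because the 7-base sites below are the reverse complement of these letters.
miR-146a-5p: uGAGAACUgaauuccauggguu
miR-148a-3p: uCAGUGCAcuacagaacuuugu
miR-181a-5p: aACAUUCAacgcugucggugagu
The site of miR-146a-5p reads AGTTCTC in the message written as DNA. That of miR-148a-3p reads TGCACTG. For miR-181a-5p the letters are TGAATGT. All were counted on the sense strand of the longest annotated 3′UTR of each subunit (GENCODE M21, GRCm38). None overlapped another. Of the 10 messages, 5 held at least 1 site, namely Gria2, Gria3, Gria4, Grin2a and Grin2b, and they held 15 sites together.

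The sites were spread unevenly, and the long 3′UTRs held most of them. Grin2b (3′UTR of 18865 bases) held 2 sites of miR-146a-5p, 1 of miR-148a-3p and 3 of miR-181a-5p. Grin2a (9929 bases) held 1, 2 and 1, and Gria2 (7268 bases) held 1, 0 and 2 in the same order. Gria3 had 1 site of miR-146a-5p and Gria4 had 1 of miR-148a-3p, whereas no such letters stood in the windows of Gria1, Grin1, Grin2c, Grin2d and Grin3a. For comparison, 12.4%, 14.9% and 18.1% of the 3′UTRs of 15351 tested genes held a site, in the order of the sequences above. Among 3′UTRs of a length like that of Grin2a these shares were 64.4%, 50.3% and 81.2%, so sites were common at that length. The following stretches of 27 bases show the 4 sites that are followed by an A, a feature known to favour recognition, the single site of Gria4 and the first miR-181a-5p site of Gria2. They are written in the sense of the message, as DNA, with the site in capitals.
Gria3, miR-146a-5p, chrX:41677465-41677491, plus strand: gtgggttcagaccacAGTTCTCaatct
Grin2a, miR-146a-5p, chr16:9577301-9577327, minus strand: agtttggcttgtaacAGTTCTCagctt
Grin2a, miR-148a-3p, chr16:9574103-9574129, minus strand: tataaataaatacctTGCACTGaggtt
Grin2b, miR-148a-3p, chr6:135723471-135723497, minus strand: gtgatccaataggatTGCACTGagtgc
Gria4, miR-148a-3p, chr9:4418372-4418398, minus strand: cttataatacatgtaTGCACTGtcctt
Gria2, miR-181a-5p, chr3:80688567-80688593, minus strand: gtcctggcatgggaaTGAATGTcagtg
A match is a description of letters and not evidence of binding.

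Library depth lay between 26653511 and 38908947 reads assigned to genes, and the subunits were covered by at least 383 reads in every library. Counting error alone gives an SD of 0.0075 log2 units for Gria2 and of 0.067 for Grin2d, the scarcest, and for Grin2d in old controls the observed SD (0.069) was about that of counting (0.068). Old control replicates 5 and 6 differed least of all pairs within a group, with an SD of 0.078 log2 units over 9845 genes against 0.109 for the next pair, so that RNA of 1 animal in both cannot be told apart from close animals. Whole numbers read from the deposited normalised table separated the libraries into 4 groups, of which group 3 held 0 old control libraries. They are called processing groups here, although no label names them and their source is not described. Results were therefore also computed with that pair counted as 1 library and with processing group as a term. Summed markers are given as a description, since a sum depends on which genes are listed and these libraries hold no other region for reference. The summed level of 6 CA1 pyramidal markers lay between 9.45 and 9.97 log2 CPM (reads of a gene relative to library size), above those of CA3 (5.84 to 6.19), dentate granule (5.75 to 6.93) and thalamic markers (4.82 to 5.44). The thalamic gene Gbx2 did not pass the filter on low counts, whereas every other listed marker did, and the summed oligodendrocyte markers lay between 12.56 and 13.41.

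The order of the subunits was compared on a scale per length, as RPKM (reads per kilobase of annotated exon, scaled by TMM library size), over all 19 libraries. Gria1 (chromosome 11, 57011387 to 57330244, plus strand of GRCm38) was highest at 158 ± 28.6 (SD, n = 19), followed by Gria2 (chromosome 3, 80681450 to 80802835, minus strand) at 77.2 ± 7.17. Each of the 19 libraries had this order on the scale per length. By reads not scaled for length, Gria2 exceeded Gria1 in every library, with log2 ratios of Gria1 to Gria2 between -0.58 and -0.084. The order of these 2 therefore rests on the lengths used, 6043 annotated exon bases for Gria1 and 15548 for Gria2. Grin1 (chromosome 2, 25291181 to 25319187, minus strand) came next at 39.2 ± 3.19, then Gria3 (chromosome X, 41400854 to 41678601, plus strand) at 34.1 ± 2.88 and Grin2b (chromosome 6, 135713233 to 136173511, minus strand) at 32.6 ± 5.17. These neighbours were not cleanly separated. Grin1 exceeded Gria3 in 18 of 19 libraries and Gria3 exceeded Grin2b in 12 of 19.

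**Figure D1:**
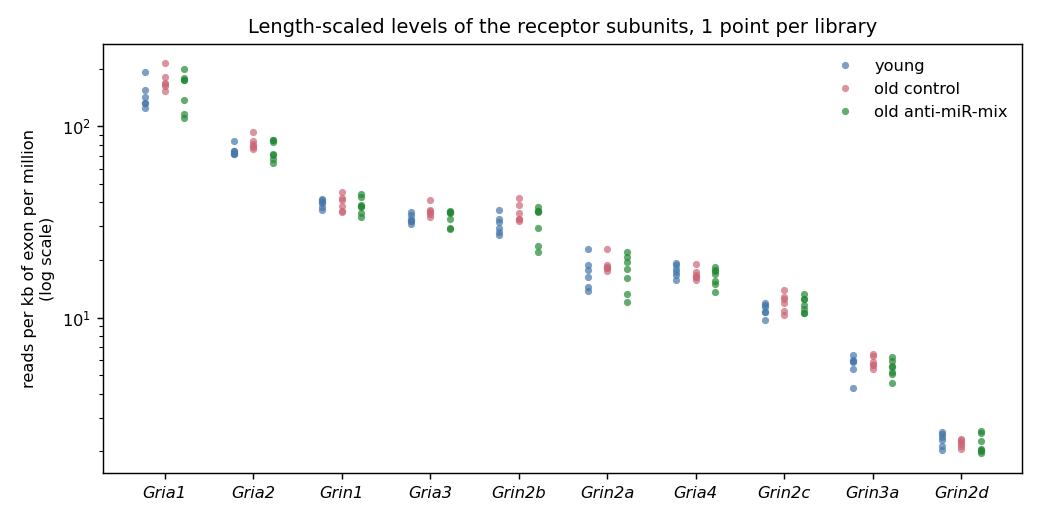
RPKM, reads per kilobase of annotated exon scaled by library size (log axis), for the 10 subunit genes, ordered by their mean, with 1 point per library and colours for the 3 groups. Gria1 is highest at a mean of 158 and Grin2d lowest at 2.23, and the groups overlap for every gene.

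The lower members were Grin2a (chromosome 16, 9567898 to 9995560, minus strand) at 17.8 ± 3.03 and Gria4 (chromosome 9, 4417896 to 4796234, minus strand) at 16.9 ± 1.45, of which Grin2a was the higher in 12 of 19 libraries. Grin2c (chromosome 11, 115249169 to 115267243, minus strand) had 11.6 ± 1.10, Grin3a (chromosome 4, 49661611 to 49845744, minus strand) 5.63 ± 0.58 and Grin2d (chromosome 7, 45831883 to 45878378, minus strand) 2.23 ± 0.19, and these were in this order in all 19 libraries. The order of all 10 was the same when the longest annotated coding transcript stood in for the summed exons, a choice made after the data were seen. The shares were less firm. On the exon scale the share of Gria1 in the AMPA receptor sum was 53.6% ± 3.26 for the young group (SD, n = 6), 56.2% ± 1.83 for old controls (SD, n = 6) and 55.0% ± 3.99 for the treated group (SD, n = 7), and with the length of the longest transcript its mean share was 46.0%. Within the NMDA receptor sum, Grin2b held between 25.6% and 34.7% and Grin2a between 14.2% and 19.1% over all libraries, and with the longest transcript their mean shares were 19.9% and 12.9%, both outside these ranges. Reads of genes on the opposite strand may add to some of these levels, as the strand setting was not stated. Grin1 shares 1307 exonic bases with the antisense gene Grin1os, which had at most 707 reads in a library, and Grin2d shares 643 with Gm45441, which had at most 114.

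The effect of age on the subunits was read from old control against young libraries. Gria1 ranged from 9.55 to 10.18 log2 CPM with a median of 9.69 in young and from 9.86 to 10.33 with a median of 9.98 in old control libraries. The old control values were shifted upwards but overlapped the young ones, since young replicate 2 exceeded 5 of the 6 old control libraries. The log2 fold change was 0.25 (95% interval -0.023 to 0.52), and the adjusted p was 0.321 in edgeR's quasi-likelihood test. Gria2 ranged from 10.12 to 10.35 (median 10.16) in young and from 10.20 to 10.51 (median 10.27) in old control libraries, a log2 fold change of 0.13 (-0.014 to 0.27). Gria3 ranged from 8.24 to 8.46 (median 8.32) in young and from 8.38 to 8.67 (median 8.45) in old control libraries. It had the lowest p of the family, with a log2 fold change of 0.14 (0.012 to 0.26), an unadjusted p of 0.033 and an adjusted p of 0.226 by edgeR. Gria4, the least abundant AMPA receptor subunit, had a log2 fold change of -0.068 (-0.20 to 0.068).

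Among the NMDA receptor subunits the obligatory Grin1 was the flattest with age. It ranged from 8.46 to 8.66 log2 CPM in young and from 8.42 to 8.78 in old control libraries, and its log2 fold change of 0.0076 had an interval of -0.13 to 0.14, which limits a difference to about 0.914-fold to 1.11-fold. Grin2a ranged from 7.94 to 8.68 (median 8.25) in young and from 8.30 to 8.67 (median 8.35) in old control libraries, so that the old values lay inside the young range. Its log2 fold change was 0.13 (-0.14 to 0.41). Grin2b ranged from 9.38 to 9.83 (median 9.57) in young and from 9.63 to 10.04 (median 9.72) in old control libraries, a log2 fold change of 0.21 (-0.040 to 0.45). The scarcer subunits moved as little, with log2 fold changes of 0.13 for Grin2c, -0.058 for Grin2d and 0.065 for Grin3a.

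Of the 10 subunits, 0 passed an adjusted p of 0.05 with age, where 2.67% of all tested genes did (edgeR). Only Gria3 had an unadjusted p under 0.05, beside 18.1% of all tested genes, and DESeq2 likewise called 0. That count of 1 was not firm, since it was 4 without young replicate 2 or with the 2 groups alone, 3 without old control replicate 4, 2 without old control replicate 3, and 0 without young replicate 3, young replicate 5 or old control replicate 2 and on the deposited log2 values. The groups overlapped for all 10 subunits, while they did not overlap for 2.54% of tested genes. A total of 8 of 10 fold changes were positive, with a median log2 fold change of 0.13 against 0.0064 over all tested genes. Of the 9845 genes with a mean of at least 3.5 log2 CPM, 53.0% had a lower mean in old control libraries. Several subunits varied together between libraries, so their signs in this and the later comparisons are not separate observations. The largest fold that the 95% intervals allowed for any member was 1.44-fold higher, for Gria1. Leaving out young replicate 2 moved the log2 fold change of Gria1 to 0.35, with an adjusted p of 0.128, which did not pass the threshold. In bulk tissue, fewer cells of a type and less RNA per cell cannot be told apart. The marker sum of oligodendrocytes was lower in old control (12.69 ± 0.11, SD, n = 6) than in young libraries (13.02 ± 0.25, SD, n = 6), and 4 of its 6 genes were called lower. Of the 6 CA1 pyramidal markers 0 were called, but their median log2 fold change of 0.14 was near that of the subunits. The part of oligodendrocyte or CA1 neuron content in the subunit values was not tested.

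**Figure D2:**
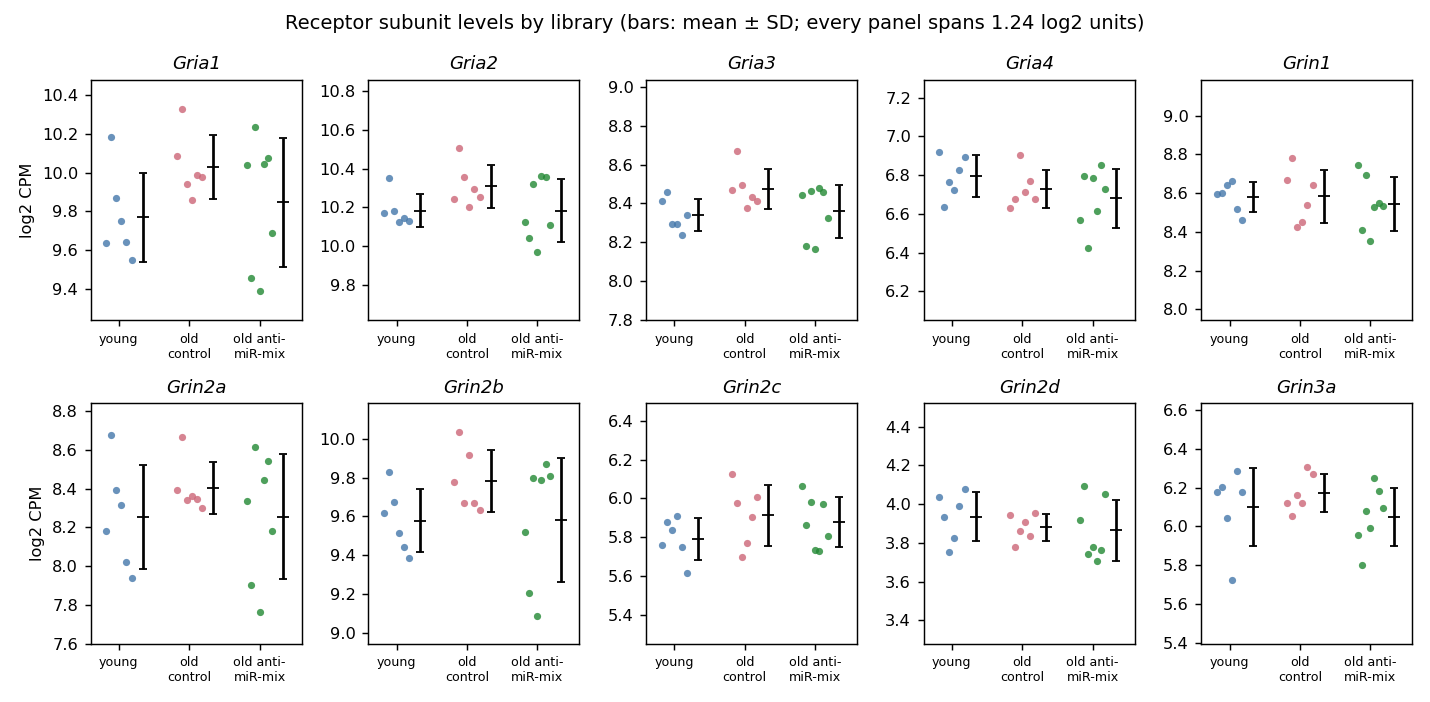
Level of each subunit in log2 CPM (vertical axis) for the libraries of the 3 groups (horizontal axis), with 1 point per library and the mean and SD as a black bar beside them. Groups overlap in every panel, and the old anti-miR-mix libraries are the most widely spread for Gria1, Grin2a and Grin2b.

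The effect of the inhibitors in aged mice was read from old anti-miR-mix against old control libraries. Gria1 ranged from 9.39 to 10.24 log2 CPM with a median of 10.04 in the treated group. Replicates 2, 4 and 7 had between 9.39 and 9.69 and lay below all old control libraries, whereas the other 4 had between 10.04 and 10.24. The log2 fold change was -0.16 (-0.42 to 0.11). Grin2a showed the same breadth, from 7.76 to 8.62 (median 8.34), and Grin2b ranged from 9.09 to 9.87 (median 9.79), with log2 fold changes of -0.12 (-0.39 to 0.14) and -0.18 (-0.42 to 0.058). For Gria2, which ranged from 9.97 to 10.36 (median 10.12), 4 of 7 treated libraries lay below all old controls, and the log2 fold change was -0.12 (-0.26 to 0.016). Gria3 ranged from 8.17 to 8.48 (median 8.45) and had a log2 fold change of -0.11 (-0.24 to 0.0075), with an unadjusted p of 0.065 and an adjusted p of 0.515 by edgeR. The intervals of these 5 subunits all included 0.

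Grin1 ranged from 8.35 to 8.75 (median 8.54) in the treated group, and its log2 fold change of -0.039 had an interval of -0.17 to 0.093. Values for the remaining subunits were -0.043 for Gria4, -0.038 for Grin2c, -0.011 for Grin2d and -0.12 for Grin3a on the log2 scale. Thus 0 of the 10 subunits passed the threshold, where 0.669% of tested genes did, and 0 had an unadjusted p under 0.05, beside 10.5% of tested genes. The latter count was 1 without old control replicate 4 or treated replicate 1 and 2 without treated replicate 3, 5 or 6. The groups overlapped for all 10, beside 0.498% of tested genes whose groups did not. All 10 fold changes were negative in this fit, but that of Grin2d turned positive, to 0.073, with processing group as a term. Their median was -0.12 against 0.00035 over all tested genes, and 59.2% of the 9845 genes with a mean of at least 3.5 log2 CPM had a lower mean in treated libraries. The summed microglial markers were 8.71 ± 0.077 for old controls (SD, n = 6) and 9.03 ± 0.18 for the treated group (SD, n = 7), and 3 of these 7 genes were called higher with treatment. Over the 19 libraries with group means removed, r between this sum and a subunit lay between -0.46 for Grin2d and 0.19 for Gria2, and r over the 6 old control libraries alone reached -0.95 for Grin2c and 0.91 for Gria4. The 6 CA1 pyramidal markers, of which 0 were called, had a median log2 fold change of -0.11, near that of the subunits. The oligodendrocyte sum was 12.69 ± 0.11 for old controls (SD, n = 6) and 12.93 ± 0.22 for the treated group (SD, n = 7). Its 6 genes had a median log2 fold change of 0.26, and 0 were called. Over the 7 treated libraries alone, r between this sum and a subunit lay between -0.89 for Grin3a and 0.54 for Grin2d. The part of microglial, oligodendrocyte or CA1 neuron content in the subunit values was not tested. As the same 6 old control libraries entered the comparisons with age and with treatment, opposite signs in them are not separate observations.

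A microRNA inhibitor would raise a message that the microRNA holds down, which makes the direction of the site-bearing subunits of interest. The 5 messages with a site had log2 fold changes between -0.18 and -0.043 with treatment (median -0.12), and the 5 without a site had between -0.16 and -0.011 (median -0.039). Both sets were at or below 0. Of the 5 site-bearing subunits 0 were called, where 0.669% of all tested genes were called with treatment. Whether the microRNAs hold down these messages was not tested. For Grin2b, with 6 sites, the upper end of the interval corresponded to 1.04-fold, and for Gria3, whose miR-146a-5p site is followed by an A, to 1.01-fold. The measurement concerns message levels and not protein.

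Old anti-miR-mix libraries were also compared with young ones. Log2 fold changes of the subunits ranged from -0.11 for Gria4 to 0.093 for Gria1, with 6 positive and 4 negative and a median of 0.0085, while 61.7% of the 9845 genes with a mean of at least 3.5 log2 CPM had a lower mean in treated libraries. None of the 10 subunits passed the threshold (0 of 10), beside 6.20% of tested genes by edgeR, and 0 had an unadjusted p under 0.05, beside 19.6%, a count that was 1 without young replicate 2 or treated replicate 6. Of the 7 microglial markers 6 were called higher in this comparison (sums of 8.50 ± 0.15 for the young, SD, n = 6, and 9.03 ± 0.18 for the treated group, SD, n = 7), and their part in the subunit values was not tested. No subunit had groups that did not overlap, beside 2.42% of tested genes. The intervals covered 0.839-fold to 1.28-fold over all members, and those of Gria2 (0.914-fold to 1.10-fold) and Gria3 (0.935-fold to 1.11-fold) were narrow.

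**Figure D3:**
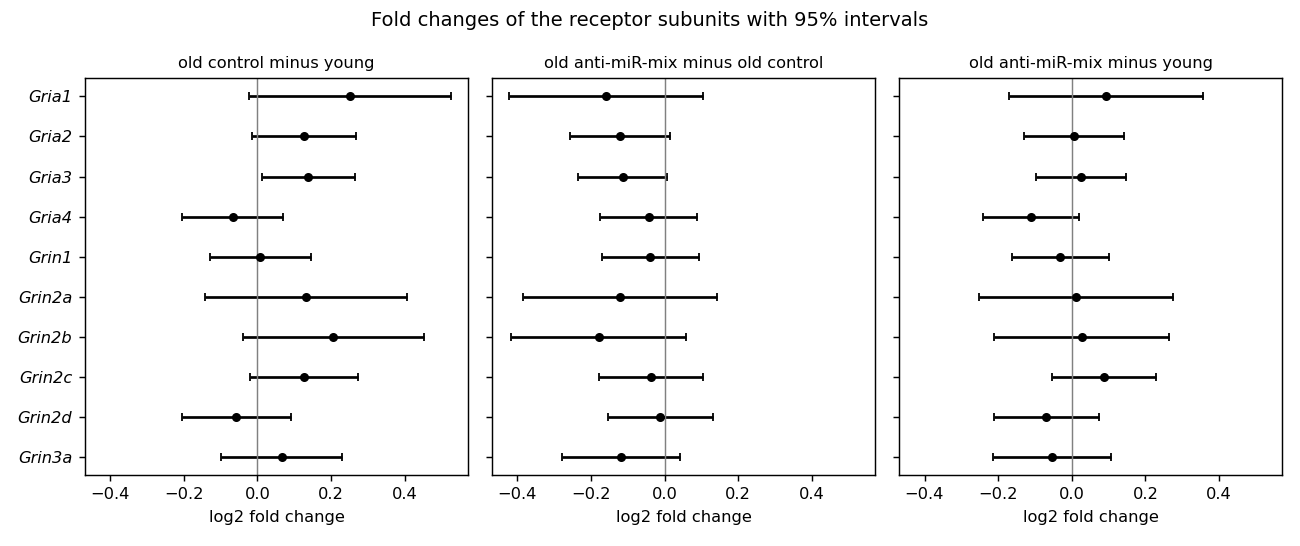
Log2 fold change (horizontal axis) of each subunit (vertical axis) in the 3 comparisons, with 95% intervals from edgeR's fit as bars. The interval of Gria3 with age, 0.012 to 0.26, is the only one of the 30 that excludes 0, and its adjusted p was 0.226.

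Ratios of subunits within a library do not depend on library size, so composition was examined as log2 ratios of read counts (not scaled for length), with exact two-sided permutation tests adjusted over 18 tests. The ratio of Grin2a to Grin2b ranged from -1.44 to -1.15 (median -1.35) in young, from -1.55 to -1.32 (median -1.35) in old control and from -1.63 to -1.18 (median -1.32) in old anti-miR-mix libraries. The 3 groups lay on top of each other. Its mean differed by -0.058 (95% interval -0.20 to 0.09) with age, exact permutation p = 0.379, and by 0.054 (-0.10 to 0.19) with treatment, exact permutation p = 0.481. Without treated replicate 7 the latter was 0.10 with an exact permutation p of 0.032. Within processing groups the differences were -0.020 with age and 0.044 with treatment, and against young libraries old anti-miR-mix libraries differed by -0.0041 (-0.175 to 0.16), a value whose sign changed with single libraries left out and with the replicate block (0.046).

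The other 5 ratios related a subunit to Gria2 or to Grin1. The ratio of Grin2b to Grin1 was the only one with an unadjusted p under 0.05. It ranged from 0.85 to 1.23 (median 0.97) in young, from 0.99 to 1.47 (median 1.19) in old control and from 0.74 to 1.33 (median 1.11) in old anti-miR-mix libraries, so that the groups overlapped. With age it was higher by 0.20 (0.015 to 0.385) on the log2 scale, with an exact permutation p of 0.043 that became 0.688 after adjustment over the 18 tests. Within processing groups the difference was 0.14, exact permutation p = 0.074, where the smallest p the design allows is 0.037. Without old control replicate 4 it was 0.15, and in 8 of the 12 fits that left out 1 library the unadjusted p exceeded 0.05.

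**Figure D4:**
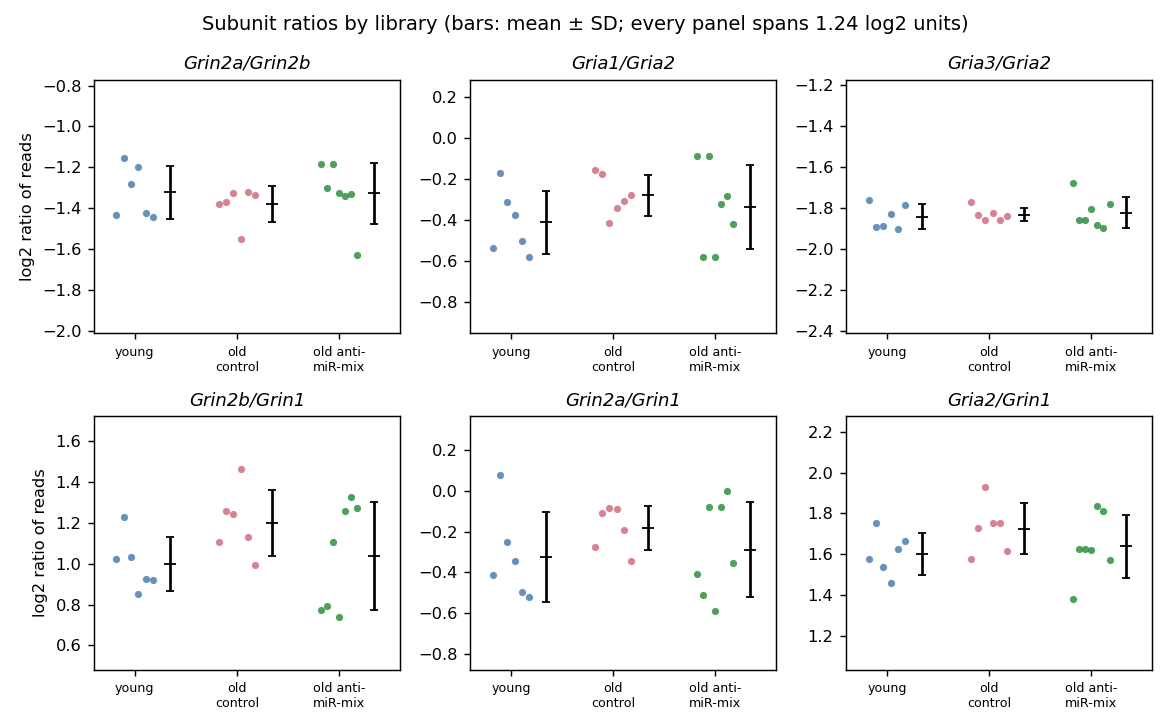
Log2 ratio of read counts (vertical axis) for 6 pairs of subunits in the libraries of the 3 groups (horizontal axis), with 1 point per library and the mean and SD as a black bar. The ratio of Gria3 to Gria2 is the tightest, with an SD of 0.032 in old control libraries, and no ratio separates the groups.

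The ratio of Gria3 to Gria2 was the most constant, at -1.84 ± 0.061 for the young group (SD, n = 6), -1.83 ± 0.032 for old controls (SD, n = 6) and -1.82 ± 0.076 for the treated group (SD, n = 7). Its differences lay between 0.0085 and 0.020 with intervals from -0.06 to 0.105. The ratio of Gria1 to Gria2 was -0.41 ± 0.16 for the young group (SD, n = 6), -0.28 ± 0.099 for old controls (SD, n = 6) and -0.34 ± 0.21 for the treated group (SD, n = 7). It differed by 0.13 (-0.035 to 0.30) with age, exact permutation p = 0.115. Without young replicate 2, the highest young library, this difference was 0.18 with an exact permutation p of 0.028. Ratios of Grin2a and of Gria2 to Grin1 differed by 0.14 (-0.09 to 0.345) and 0.12 (-0.025 to 0.27) with age. Without young replicate 2 the former was 0.22 with an exact permutation p of 0.015. The latter was 0.15 without that library (exact permutation p = 0.043) and also 0.15 without old control replicate 1 (exact permutation p = 0.048). With treatment, all differences of the 6 ratios lay between -0.16 and 0.054, and the lowest exact permutation p was 0.214. After adjustment, 0 of 18 tests passed 0.05, and 1 of 18 did so unadjusted.

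Variation within groups was largest for Grin2a, Gria1 and Grin2b among the subunits. The SD within groups was 0.26 log2 units for Gria1, 0.26 for Grin2a and 0.23 for Grin2b. Among 9845 genes with a mean of at least 3.5 log2 CPM the median was 0.088, and 97.4%, 97.5% and 96.4% of them had a lower SD than Gria1, Grin2a and Grin2b. Among genes within 1 log2 unit of each subunit's mean level these shares were 96.6%, 98.6% and 95.8%, and for the other 7 they lay between 61.0% (Grin2d) and 90.9% (Grin3a). Gria2, Gria3, Gria4, Grin1, Grin2c and Grin2d had between 0.11 and 0.13, and Grin3a had 0.15.

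After group means had been removed, Pearson and Spearman correlations over the 19 libraries were computed for all 45 pairs of subunits and for each subunit with the 11 summed marker lists, in a family of 155 relations with p from 100000 permutations within groups. Of the 45 pairs, 13 were positive and 2 negative at an adjusted p under 0.05 for r, and 12 and 1 of these also for rho. The 13 had r of at least 0.68 and made up 28.9% of the pairs, where 2.47% of all pairs of the 9845 genes reached that r, and the 2 negative ones made up 4.44%, beside 1.96% of all pairs with an r as low. Gria4, Grin2d and Grin3a were in none of the 13. The strongest was Gria1 with Grin2a (r = 0.96, rho = 0.94, adjusted permutation p = 0.000775 for r), both at the smallest unadjusted p that the permutations can give, 1e-05. Other examples were Gria2 and Gria3 (r = 0.88, rho = 0.80), Grin2a and Grin2b (r = 0.87, rho = 0.83), Gria1 and Gria2 (r = 0.86, rho = 0.77) and Grin1 and Grin2c (r = 0.81, rho = 0.84), with adjusted permutation p values of at most 0.00400. Without the 2 libraries farthest from the median, the 13 positive pairs kept r between 0.64 and 0.94, and with processing group removed as well r was between 0.75 and 0.97. Processing groups hold 4 or 5 libraries, too few for a correlation within each. Gria4 ran the other way. Its r was -0.69 with Grin1 and -0.67 with Gria1, and the latter fell to -0.49 without the 2 farthest libraries and had an adjusted permutation p of 0.056 for rho.

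**Figure D5:**
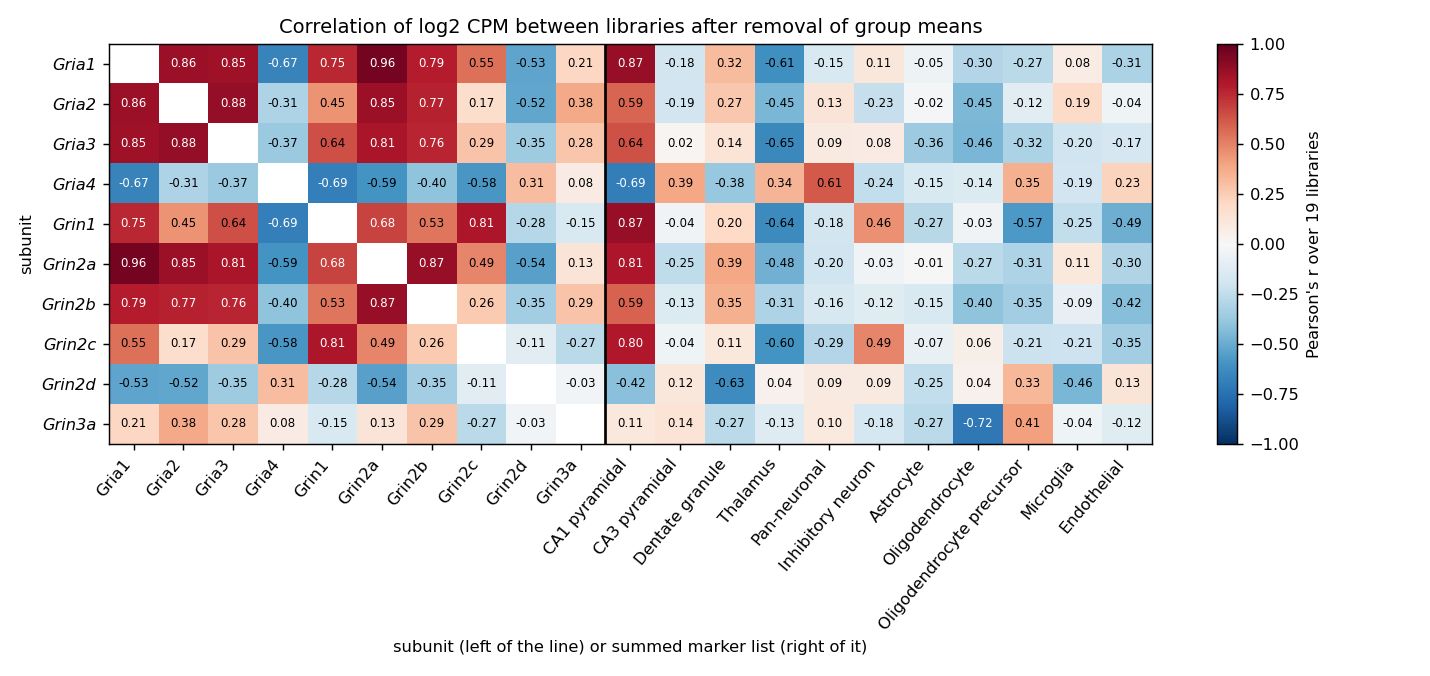
Pearson correlation (colour and printed value) between the subunits (rows) and the other subunits or the summed markers of a cell type (columns) over 19 libraries, after group means were removed. Gria1, Gria2, Gria3, Grin2a and Grin2b form a block of values between 0.76 and 0.96, and Gria4 and Grin2d have negative values with that block.

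The same libraries differed in their CA1 pyramidal markers. The marker sum correlated with Gria1 (r = 0.87, rho = 0.86), Grin1 (r = 0.87, rho = 0.83), Grin2a (r = 0.81, rho = 0.76) and Grin2c (r = 0.80, rho = 0.77), with adjusted permutation p values of at most 0.00395 for r, and negatively with Gria4 (r = -0.69, adjusted permutation p = 0.030). Groups differed in this. For Grin2a r was 0.95 over the 6 young, 0.23 over the 6 old control and 0.93 over the 7 treated libraries. For Gria1 it was 0.89, 0.58 and 0.97 in the same order. Grin1 (0.81, 0.82 and 0.94) and Grin2c (0.86, 0.90 and 0.75) varied less. Of 9839 genes at a like level, 2.13% were correlated at least as strongly as Gria1, 5.23% as Grin2a, 13.7% as Gria4 and 24.7% as Gria2 (r = 0.59), the median absolute r being 0.38. Old anti-miR-mix replicates 2, 4 and 7, which were low in Gria1, also had the lowest CA1 marker sums of their group (9.52, 9.45 and 9.65 log2 CPM against 9.74 to 9.94 in the other 4). The marker sum was 9.79 ± 0.12 for the young group (SD, n = 6), 9.87 ± 0.13 for old controls (SD, n = 6) and 9.72 ± 0.19 for the treated group (SD, n = 7). Thalamic markers were negatively correlated with Gria1 (r = -0.61), Gria3 (r = -0.65) and Grin1 (r = -0.64), and Grin3a was negatively correlated with the oligodendrocyte sum (r = -0.72, adjusted permutation p = 0.023). Gria4 was positively correlated with the sum of pan-neuronal markers (r = 0.61, adjusted permutation p = 0.031), and r was 0.41 without the 2 farthest libraries. The part of cell makeup in the subunit values was not tested beyond these relations.

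A further 58 genes that work with the receptors, in 4 lists and all tested, were examined by the same fit. The share called was 1.72% with age, 0 with treatment and 6.90% against young, near the 2.67%, 0.669% and 6.20% of all tested genes. Of the 16 genes for auxiliary subunits and assembly of AMPA receptors, such as the Cacng and Shisa families, 0 were called in any comparison, with median log2 fold changes of 0.021 with age, -0.025 with treatment and 0.0051 against young. At an unadjusted p under 0.05 these counts were 2, 0 and 2. Of the 23 scaffold, kinase and trafficking genes, 1 was called lower with age and 1 lower in old anti-miR-mix than in young libraries, in both cases Fyn, a tyrosine kinase that phosphorylates NMDA receptor subunits. The medians of that list were 0.055, -0.075 and -0.017. Among the 8 kainate and delta receptor genes, 1 was called lower in old anti-miR-mix than in young libraries, and among the 11 genes of RNA editing and glutamate supply 2 were called higher in that comparison. With treatment, 0 of the 58 were called by edgeR or by DESeq2, and 6 had an unadjusted p under 0.05 by edgeR.

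Fyn ranged from 6.95 to 7.13 log2 CPM in young, from 6.81 to 6.92 in old control and from 6.80 to 6.94 in old anti-miR-mix libraries. Neither old group overlapped the young one. The log2 fold change with age was -0.15 ± 0.034 (SE) with an adjusted p of 0.019 by edgeR, which became 0.053 with processing group as a term and 0.074 without young replicate 4. Fyn is also expressed in oligodendrocytes, and 4 of their 6 markers were called lower with age (median log2 fold change -0.44). Over the 19 libraries with group means removed Fyn and that marker sum had an r of 0.27, and the part of oligodendrocytes in the value of Fyn was not tested. Against young, old anti-miR-mix libraries had -0.14 ± 0.033 (SE) and an adjusted p of 0.0085, which stayed below 0.05 in these fits. Neto2, an auxiliary subunit of kainate receptors, ranged from 6.18 to 6.40 in young and from 5.98 to 6.22 in old anti-miR-mix libraries, a log2 fold change of -0.20 ± 0.045 (SE) with an adjusted p of 0.0086 by edgeR. Slc1a3, the glial glutamate transporter, ranged from 9.50 to 9.62 in young and from 9.59 to 9.88 in old anti-miR-mix libraries, and its log2 fold change was 0.20 ± 0.046 (SE) with an adjusted p of 0.012 by edgeR. The summed astrocyte markers, cells in which Slc1a3 is mainly expressed, were 10.74 ± 0.14 for the young (SD, n = 6) and 11.07 ± 0.13 for the treated group (SD, n = 7), and their part in the value of Slc1a3 was not tested. Rest, a repressor of neuronal genes, had a log2 fold change of 0.28 ± 0.081 (SE) with an adjusted p of 0.044, which became 0.076 with processing group as a term and 0.094 without old anti-miR-mix replicate 4.

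Within these 58 genes, the one most like each subunit over the 19 libraries was found from the same values without group means, as a description. Shisa6, an auxiliary subunit of AMPA receptors, was most like both Gria1 (r = 0.98) and Grin2a (r = 0.95). Frrs1l, which takes part in AMPA receptor assembly, was most like Gria2 (r = 0.89), and the scaffold genes Dlg3, Dlgap2 and Dlgap3 were most like Gria3 (r = 0.86), Grin2b (r = 0.91) and Grin2c (r = 0.89). Another scaffold gene, Dlg1, ran the other way. It was the least like Gria1 (r = -0.96), Grin2a (r = -0.92), Gria3 (r = -0.78), Grin2b (r = -0.74) and Grin1 (r = -0.71). Cpt1c was most like Grin1 (r = 0.92), Shisa9 most like Gria4 (r = 0.80) and Neto1 most like Grin3a (r = 0.75). Grin2d was the exception, as its closest gene, Grik1, had an r of 0.65 that fell to 0.27 with processing group removed.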

How the data were processed

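Groups were taken from the descriptions of the 19 libraries, each labelled as a separate sample of CA1 tissue. The members and the lists of related and marker genes were chosen with earlier results of these data known. Libraries of polyadenylated RNA were made by the authors with the TruSeq v2 kit per the labels and read single-end, and the authors, per the submitters' processing notes, used FastQC 0.11.5, STAR 2.5.2b on mm10 and featureCounts of Subread 1.5.1. Strand and multi-mapping settings are not given in the sources used here.

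The deposited count files hold raw read counts per Ensembl gene, made by the authors. A deposited table of log2 values for 18761 genes was rebuilt from the counts to within 3.4e-08 as log2(CPM + 1) less a gene's slope times a whole number, 1 to 4, for the library. These numbers define the processing groups, were read from the table, and their source is not described. All 19 columns were assigned and 0 were left unused.

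Genes reaching 5 reads in 50% of libraries or more were tested with edgeR 4.0.16 (R 4.3.3), with TMM scaling, all 3 groups in one quasi-likelihood fit without a covariate, and Benjamini-Hochberg adjustment over the 19286 tested genes at 0.05. The fit was tested on simulated data. Intervals of 95% use the degrees of freedom of the fit. Log2 CPM values have a prior count of 2. Ratios used 0.5 added reads and exact permutation tests. Named genes were all 10 members, genes of the 4 related lists past the threshold in a comparison (up to 8 per list), and for each member the listed gene with the highest correlation. Dlg1 was named as well, as the listed gene with the lowest correlation for several members. Alternatives were DESeq2 1.42.0, limma 3.58.1 on the deposited log2 values, other scaling and filters, processing group, a replicate block, 2 groups only, old control replicates 5 and 6 as 1 library, and each library left out. Symbols and coordinates came from GENCODE M21 (GRCm38), which may differ from the authors' release. Permutations and sequence searches used Python 3.11.15 and scipy 1.17.1. P values set a difference or a correlation against the spread between these libraries, and they do not measure that spread.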

Additional observations from a re-analysis of the deposited data

Results flagged for a closer look

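Dixon's ratio was applied to the level of each subunit and to each ratio within each group, 48 groups of values in all, of which chance alone flags about 1 in 20. It marked 4 single libraries, and none was explained here. Young replicate 2 had 10.35 log2 CPM of Gria2, while the other young libraries had 10.12 to 10.18. Old control replicate 2 had 8.67 log2 CPM of Grin2a, with the other old controls between 8.30 and 8.39. The log2 ratio of Grin2a to Grin2b was -1.55 in old control replicate 4 against -1.38 to -1.32 in the others, and -1.63 in old anti-miR-mix replicate 7 against -1.34 to -1.18.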

How the results depend on the processing

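None of the 10 subunits was called in any comparison under any of 22 alternatives for age, 23 for treatment and 23 against young, leave-one-out fits included, and the lowest adjusted p of a subunit in these was 0.128, 0.340 and 0.240. Some fold changes near 0 changed sign. On the deposited log2 values (limma) the log2 fold changes were -0.026 for Grin1 with age, 0.012 for Grin2d with treatment, and -0.0032 for Grin2a and -0.00025 for Grin2b against young. With processing group as a term they were 0.073 for Grin2d with treatment and -0.0030 for Grin2a against young. With old control replicates 5 and 6 as 1 library and processing group, an alternative added after seeing the data, they were -0.0052 for Grin1 with age, 0.080 for Grin2d with treatment and -0.00053 for Grin2a against young.

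Replicate numbers gave no consistent pairing, as correlations of same-numbered libraries ran from -0.54 to 0.62 and 4 of 18 were the highest of their library. However, 9 of 18 exceeded 0.1, and some same-numbered libraries shared a processing group. Whether some numbers mark pairs cannot be told from these values. With the replicate block, the log2 fold change of Grin2b against young was -0.010 and the Grin2a to Grin2b ratio differed by 0.046 (exact permutation p = 0.531). The block changed no call of a subunit.

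With 1 library left out, log2 fold changes that changed sign ranged from -0.034 to 0.045 (Grin1) with age, from -0.077 to 0.0024 (Grin1), -0.081 to 0.0075 (Grin2c) and -0.051 to 0.014 (Grin2d) with treatment, and from -0.021 to 0.049 (Gria2), -0.051 to 0.11 (Grin2a) and -0.018 to 0.096 (Grin2b) against young. Differences in log2 ratios ranged from 0.020 to 0.10 for Grin2a to Grin2b with treatment, where the exact permutation p was 0.032 without old anti-miR-mix replicate 7, and from -0.028 to 0.046 against young. They ranged from 0.0997 to 0.18 for Gria1 to Gria2 with age, from -0.00073 to 0.029, -0.015 to 0.021 and -0.0040 to 0.037 for Gria3 to Gria2 in the 3 comparisons, from 0.15 to 0.25 for Grin2b to Grin1 with age and -0.0072 to 0.091 against young, from 0.10 to 0.22 for Grin2a to Grin1 with age and -0.011 to 0.12 against young, and from 0.081 to 0.15 for Gria2 to Grin1 with age. Within processing groups the ratio of Grin2b to Grin1 differed by 0.14 with age.

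Of the 58 related genes, 1 was called with age. The count was 3 by DESeq2, 0 without the filter, 2 with the 2 groups alone, 2 on the deposited log2 values, 0 with processing group, 0 with processing group and the pair as 1 library, and 0 to 2 with 1 library left out. Each subunit had at least 383 reads per library, and depth limits Grin2d most, with a counting SD of 0.067 log2 units beside an observed SD within groups of 0.12. The intervals given hold the differences that are compatible with these libraries, and they are not limits of detection.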
